A study of Mus musculus with 4 samples.

Results

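A set of 10 genes of lipid handling was followed through the WT libraries of the series: Cd36, Fabp4, Fabp5, Lpl, Plin2, Pparg, Abca1, Abcg1, Lipa and Apoe. They were taken by symbol from the gene list of the files, and all 10 were found among its 32285 genes. The data are single-cell RNA sequencing libraries of myeloid-derived suppressor cells (MDSCs), immature myeloid cells known for restraining T cells, made from mouse bone marrow in culture. Cells of wild type (WT) mice were grown for 4 days with IL-6 and GM-CSF at 40 ng/mL each. They received isoproterenol (ISO, a synthetic catecholamine, 10 µM) or PBS, and live CD11b+ cells, a gate for myeloid cells, were then sorted. The 2 groups are WT+PBS and WT+ISO, with 1 library each. The mice were 6 to 10 weeks old and on the C57BL/6 background, and how many mice gave each culture is not given in the sources used here. The treatment field of the labels gives ISO for both samples, whereas the titles and the study's methods separate ISO from PBS, and the titles were followed.

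The 10 genes cover the path of a lipid through a myeloid cell. Lipoprotein lipase (Lpl) frees fatty acids from lipoproteins, the scavenger receptor CD36 takes them in, and the fatty acid binding proteins Fabp4 and Fabp5 carry them. Perilipin 2 (Plin2) coats the lipid droplets in which they are stored, and Pparg encodes PPARγ, a nuclear receptor that senses fatty acids and drives several of these genes. Lysosomal acid lipase (Lipa) splits cholesteryl esters and triglycerides taken up with lipoproteins. The transporters Abca1 and Abcg1 hand cholesterol to lipoprotein particles, and apolipoprotein E (Apoe) is a secreted carrier of it. All 3 of these are known targets of the LXR receptors. Lipid uptake is known to accompany the suppressive state of MDSCs in tumours.

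The genes lie on 8 mouse chromosomes (build GRCm38.p6, RefSeq, the assembly of mm10), and all are protein-coding. Fabp5 (chr3:10012585-10016610) and Fabp4 (chr3:10204342-10208616) are neighbours within a cluster of fatty acid binding protein genes. Plin2 (chr4:86626910-86670217) and Abca1 (chr4:53030789-53159988) share a chromosome. The others are Cd36 (chr5:17781690-17888959), Pparg (chr6:115360879-115490404), Apoe (chr7:19696244-19701310), Lpl (chr8:68880555-68906932), Abcg1 (chr17:31057694-31117984) and Lipa (chr19:34492316-34527474). RefSeq promoter windows, from 250 bases before the start to 50 after it, were at hand for 6 of the 10 genes (10 windows). The 250 bases before the start are shown for 3 genes that the results below turn on, Cd36 and Plin2, whose log2 ratios with ISO were 0.81 and 0.55 within the macrophage-like cluster of WT, and Abca1, whose ratio there was -1.15. Of these 3, Cd36 and Abca1 passed the 1.5-fold rule given below and Plin2 did not. The Cd36 window is chr5:17835897-17836146, the Plin2 window chr4:86670060-86670309 and the Abca1 window chr4:53159896-53160145, all on the minus strand and written 5′ to 3′ along the gene. Capitals mark AGGTCA, the half-site letters of nuclear receptors such as PPARγ and LXR, read on either strand (TGACCT on the other), and TATAAA, the letters of a TATA box.
Cd36: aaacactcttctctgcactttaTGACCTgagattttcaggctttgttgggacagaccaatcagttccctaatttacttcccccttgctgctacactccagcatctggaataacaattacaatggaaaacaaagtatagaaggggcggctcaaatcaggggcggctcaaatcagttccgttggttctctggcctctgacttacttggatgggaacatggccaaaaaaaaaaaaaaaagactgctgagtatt
Plin2: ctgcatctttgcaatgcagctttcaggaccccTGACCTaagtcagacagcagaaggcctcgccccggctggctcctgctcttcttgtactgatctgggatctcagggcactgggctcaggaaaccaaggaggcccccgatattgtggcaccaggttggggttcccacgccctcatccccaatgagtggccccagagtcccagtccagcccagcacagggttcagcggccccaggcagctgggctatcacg
Abca1: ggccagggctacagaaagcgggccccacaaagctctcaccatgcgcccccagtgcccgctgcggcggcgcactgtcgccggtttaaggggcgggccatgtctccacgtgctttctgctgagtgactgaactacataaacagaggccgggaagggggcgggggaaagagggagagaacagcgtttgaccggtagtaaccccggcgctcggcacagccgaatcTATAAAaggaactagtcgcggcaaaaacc
The AGGTCA letters stood 228 bases before the start used for Cd36 and 218 before that of Plin2, on the opposite strand in both. TATAAA stood 29 bases before the start of Abca1. The start used for Cd36 lies well inside the span of the gene given above, so it is an internal start and not the outermost. Over all windows of the members, 4 of 10 held AGGTCA (Cd36, Plin2 and 2 of Pparg), 4 of 10 held TATAAA and 1 of 10 (Lipa) held TGACG, the half-site letters of cAMP response elements. Of all 32851 windows of this length, 16.3% held AGGTCA, 13.6% TATAAA and 20.8% TGACG. Each window shown held 1 match in all, so no motif overlapped another there.

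Levels were measured as unique molecular identifiers (UMIs, each counting 1 captured RNA molecule at its 3′ end), summed over the cells of a library or cluster and given per 1000000 UMIs of all genes (CPM). WT+PBS held 2210 cells and 24393687 UMIs, WT+ISO held 2264 cells and 29400468 UMIs, and no cell barcode was shared between them. With 1 library per group no test was possible, and no p-value is given. The 95% intervals in brackets hold the error of counting alone and say nothing of how far cultures or animals vary. UMIs of 1 cell are not independent, so the intervals are too narrow where few cells carry a gene. A gene was called higher or lower where the libraries differed by at least 1.5-fold (0.585 on the log2 scale) with at least 100 UMIs between them.

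Of the uptake and carrier genes, Fabp5 and Lpl were carried by many cells, whereas Cd36 and Fabp4 came from few. Fabp5 was at 428 CPM in WT+PBS against 407 in WT+ISO, and Lpl at 288 against 225. The intervals did not overlap for either gene, and neither difference reached 1.5-fold. Cd36 was at 4.30 CPM with PBS and 4.32 with ISO, from 105 and 127 UMIs, and its intervals overlapped. In each library 5 cells held 41.9% and 41.7% of the Cd36 UMIs. Fabp4 was at 3.65 and 0.340 CPM, from 89 UMIs in 15 cells and 10 UMIs in 5 cells. A single cell held 39 of the 89 UMIs of Fabp4 in WT+PBS, and the 5 cells with the most UMIs held 86.5% of them.

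The storage gene, the nuclear receptor and the lysosomal lipase differed by less than 1.5-fold. Plin2 was at 194 CPM with PBS and 211 with ISO, Pparg at 75.2 and 82.9, and Lipa at 34.6 and 39.9. The intervals of the libraries did not overlap for any of the 3. Of the 9 members tested for the 1.5-fold rule, 7 had intervals that did not overlap, against 30.2% of the 10771 genes tested. Whether intervals overlap depends on how many UMIs a gene has, and the genes tested were not matched for this. Cd36 and Apoe, whose intervals overlapped, had 79 to 127 UMIs a library. The count is thus not read as a trait of the set.

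Of the efflux genes, the transporters Abca1 and Abcg1 were lower in WT+ISO and Apoe was not called. Abca1 was at 12.5 CPM in WT+PBS [11.1 to 13.9] and 3.98 in WT+ISO [3.29 to 4.77], from 304 and 117 UMIs. Abcg1 was at 68.7 and 40.3 CPM, again with no overlap. Apoe was at 3.24 and 2.76 CPM, from 79 and 81 UMIs, and its intervals overlapped. In WT+PBS 5 cells held 51.9% of the Apoe UMIs, against 17.3% in WT+ISO.

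**Figure D1:**
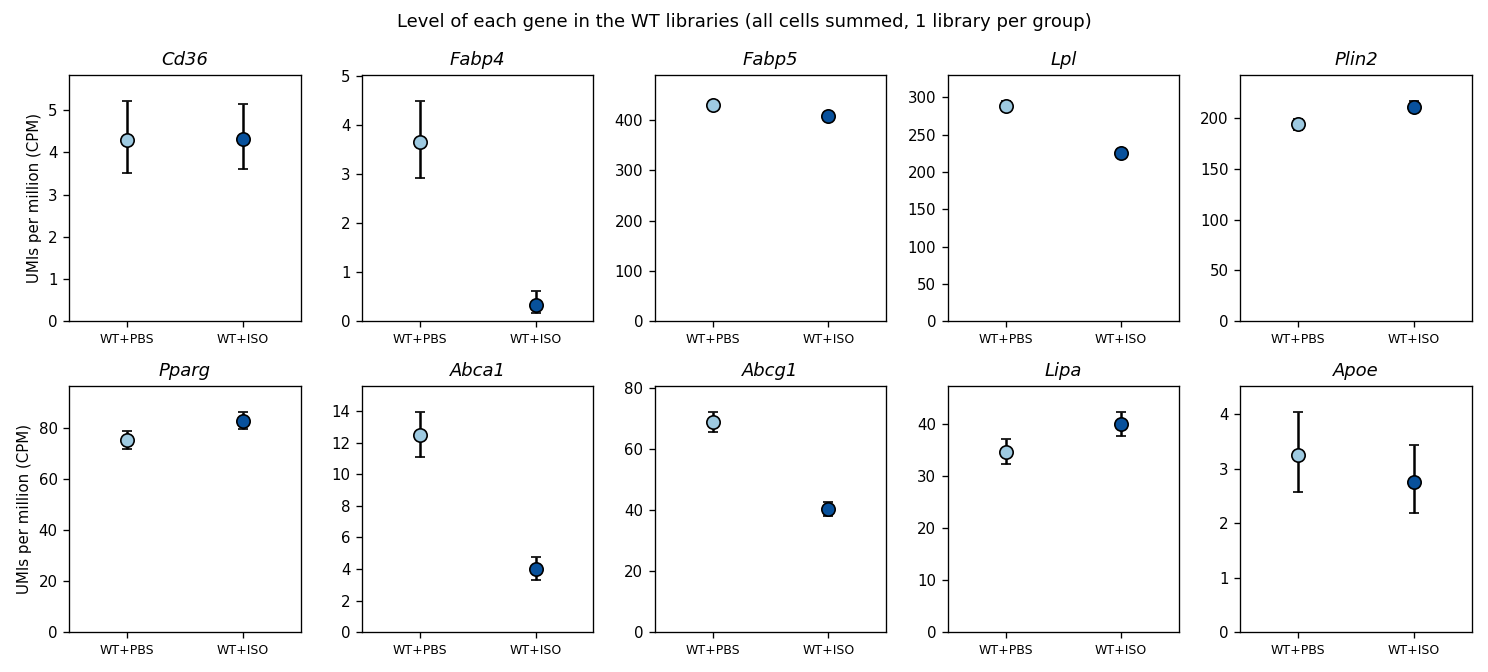
Each panel shows 1 gene, with its level (UMIs per 1000000, CPM, axis from 0) in WT+PBS and WT+ISO as points and the 95% counting interval as bars. Abca1 (12.5 and 3.98 CPM) and Abcg1 (68.7 and 40.3 CPM) are lower in WT+ISO, and Plin2, Pparg and Lipa differ by less than 1.5-fold.

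The first question was which of these genes differed between ISO and PBS in WT cells. In the summed cells of WT, both cholesterol transporters were lower with ISO. The log2 ratio of Abca1 was -1.65 [-1.97 to -1.34], a level 0.319 times that with PBS, and that of Abcg1 was -0.77 [-0.88 to -0.66], 0.587 times that with PBS. No member was 1.5-fold higher, against 1.0% of the 10771 genes tested, and 2 of the 9 members tested were lower, against 5.5%. Of the others, Lpl (-0.36), Fabp5 (-0.073) and Apoe (-0.23) had ratios below 0, and Plin2 (0.12), Pparg (0.14), Lipa (0.20) and Cd36 (0.0051) above 0. Fabp4 had a log2 ratio of -3.42 [-4.53 to -2.48], from 99 UMIs in all, and was not counted. The median over the 10 members was -0.15, against -0.016 over all genes tested.

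**Figure D2:**
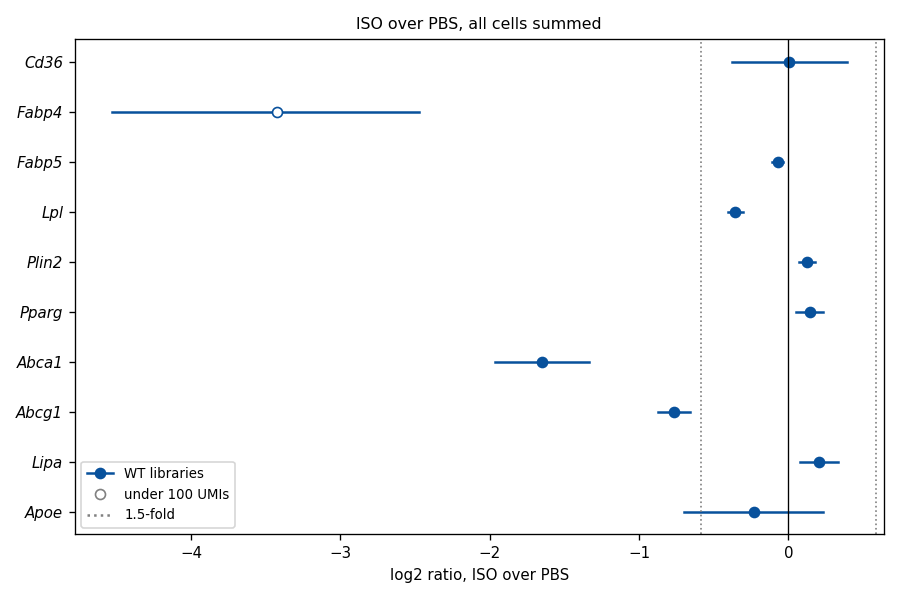
The x axis is the log2 ratio of ISO over PBS for all cells of the WT libraries summed, with 1 row per gene. Bars are 95% counting intervals, the open symbol has fewer than 100 UMIs and dotted lines mark 1.5-fold. Abca1 (-1.65) and Abcg1 (-0.77) are the only filled symbols beyond 1.5-fold.

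The makeup of the cultures moved with ISO too, and summed levels carry it. In bulk sums, fewer cells of a type and less RNA per cell cannot be told apart. The macrophage-like cluster described below held 20.1% of the cells with PBS and 12.9% with ISO. A cluster led by Gpnmb, in which Abcg1 and Lipa were highest, held 26.9% and 15.5%, and the mature neutrophil-like cluster 16.4% and 23.0%. The 8 markers of the macrophage-like list, all of them with UMIs, summed to 231.5 CPM in WT+PBS and 109 in WT+ISO, the 7 of the MHC class II dendritic-cell-like list to 1000 and 335, and the 6 of the migratory dendritic-cell-like list to 88.0 and 53.6. The 5 eosinophil-like markers summed to 57.3 and 3.10 CPM. The monocyte-like list was near level, at 1555 and 1565 CPM. The neutrophil lists were higher with ISO: azurophil-granule 4162 and 5440, specific-granule 20710 and 27560, and mature 112300 and 131000. The part of these shifts in the summed ratios was not tested. With the clusters set to the same weights in both libraries, Abca1 was at -0.63, still past 1.5-fold, and Abcg1 at -0.47, below it. Cd36 then reached 0.76, and Lpl (0.12) and Fabp5 (0.049) lay above 0. These weights are shares of cells, whereas summed levels weight each cell by its UMIs, so both change at once. With equal weight per cell alone, Abca1 was at -1.07, Abcg1 at -0.82, Cd36 at 0.47, Lpl at -0.39 and Fabp5 at -0.11. For adipocyte- or stromal-like cells, which use Fabp4, Lpl and Cd36 heavily, 3 of 7 markers had UMIs. Their sum was 7.38 CPM with PBS and 2.62 with ISO. Adipoq, Cfd, Lep, Col1a2 and Cxcl12 had at most 3 UMIs in each library, so the sum came mainly from Col1a1, Lepr or both. Of the endothelial-like list 5 of 5 had UMIs (39.15 and 32.65 CPM). Cdh5 and Emcn had at most 3 in each library, so this sum came mainly from among Pecam1, Kdr and Vwf. Whether such cells were present was not tested.

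Clustering without the 10 genes and their pathway lists gave 8 clusters, which held 4474 cells of the WT libraries. They were a macrophage-like cluster (738 cells, led by Mrc1 and Mmp12), a mature neutrophil-like cluster (884), a pair of specific-granule neutrophil-like clusters (496 cells led by Stfa3 and Ltf, 577 led by Camp and Ncam1), an azurophil-granule neutrophil progenitor-like cluster (346), a migratory dendritic-cell-like cluster (53), and 2 clusters that fit no marker list. One of these (946 cells) was led by Gpnmb and Atp6v0d2 and had few UMIs per cell (median 3353.5), and the other (434 cells) was led by Kcnq5, Thy1, Phgdh and Psat1. "Like" marks that a name rests on a marker list, and doublets were not removed. In the macrophage-like cluster 5 of the 8 listed markers were found in at least 10% of cells. C1qa, C1qb and C1qc were found in 2.30%, 7.45% and 4.88% of its cells. A finer split given below named 519 cells monocyte-like and 203 macrophage-like. Macrophages and dendritic cells are the myeloid cells best known for lipid handling. Of the 10 genes, 7 had their highest level in the macrophage-like or the migratory dendritic-cell-like cluster, Apoe from 6 UMIs. The share of all genes that peak there was not computed, so the count is not read as particular to this set.

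Most UMIs of Lpl and Cd36 came from the macrophage-like cluster, and most of Fabp4 from the migratory dendritic-cell-like cluster. Lpl was at 764 CPM in the macrophage-like cluster, which held 71.5% of its UMIs, at 259 in the Gpnmb cluster and at 226 in the Kcnq5 cluster, at 122 in the migratory dendritic-cell-like cluster, and at 14.5 to 20.6 CPM in the 4 neutrophil-like clusters. Cd36 was at 14.0 CPM in the macrophage-like cluster (77.2% of its UMIs) and at 44.1 in the migratory dendritic-cell-like cluster, and at 1.775 or less elsewhere. Fabp4 was at 92.9 CPM in the migratory dendritic-cell-like cluster, whose 53 cells held 80.8% of its UMIs, though only 8 of them had any, and below 1 CPM in each other cluster, with no UMI in 3 of them. Fabp5 was at 3235 CPM in the migratory dendritic-cell-like cluster, 908 in the Kcnq5 cluster, 482 in the macrophage-like cluster and 306 in the azurophil-granule progenitor-like cluster. It was found in 96.2% of the migratory dendritic-cell-like cells (median 14908 UMIs per cell). After thinning each cell to 2000 UMIs it was found in 77.4% of 53 such cells [63.8 to 87.7], against 42.2% of 735 macrophage-like cells and 8.15% of 577 cells of the Ncam1 cluster, with 0, 3 and 0 shallower cells left out.

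Plin2 and Pparg had another distribution. Plin2 was at 310.5 CPM in the macrophage-like cluster, 235 in the mature neutrophil-like cluster, 233 in the Kcnq5 cluster and 201 in the Gpnmb cluster, and lowest, at 63.9, in the migratory dendritic-cell-like cluster. Pparg was highest in the mature neutrophil-like cluster (121 CPM) and the Kcnq5 cluster (118), at 91.95 and 88.45 in the specific-granule clusters and at 66.1 in the macrophage-like cluster, and lowest, at 12.8, in the migratory dendritic-cell-like cluster. Pparg was thus higher in mature neutrophil-like than in macrophage-like cells in each library, at 139 against 66.7 CPM in WT+PBS and 112 against 65.2 in WT+ISO. After thinning it was found in 20.98% of 839 mature neutrophil-like cells [18.3 to 23.9] and 11.97% of 735 macrophage-like cells [9.71 to 14.5] (45 and 3 shallower cells left out), whereas before thinning the shares were 39.1% and 47.15%, at medians of 5242.5 and 16812 UMIs per cell.

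Lipa and the efflux genes were again highest outside the neutrophil-like clusters. Lipa was at 88.5 CPM in the Gpnmb cluster and 51.8 in the macrophage-like cluster, and at 23.05 to 32.2 in all others. Abca1 was at 29.0 CPM in the migratory dendritic-cell-like and 26.7 in the macrophage-like cluster, 8.88 in the Gpnmb cluster and 1.37 or less elsewhere. Abcg1 was at 120.2 CPM in the Gpnmb cluster, 115.5 in the macrophage-like cluster, 73.2 in the migratory dendritic-cell-like cluster and 49.7 in the mature neutrophil-like cluster, and lowest, at 5.30, in the azurophil-granule progenitor-like cluster. Apoe was at 6.97 CPM in the migratory dendritic-cell-like cluster, from 6 UMIs, at 6.44 in the Kcnq5 cluster and at 3.68 in the macrophage-like cluster.

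Free RNA from broken cells can put UMIs of a macrophage gene into other cells. The complement genes C1qa, C1qb and C1qc, which neutrophils are not known to make, were in the 4 neutrophil-like clusters at 0.622% to 1.67% of their summed level in the macrophage-like cluster over both libraries. This gauge differed between the libraries, since the macrophage-like level of these genes was 60.2 CPM in WT+PBS and 5.04 in WT+ISO. It was 0% to 0.488% in WT+PBS, from 1 UMI in all 4 clusters, and 3.76% to 19.2% in WT+ISO, from 1 to 3 UMIs a cluster. In WT+ISO these were divided by 27 UMIs of the macrophage-like cluster, against 446 in WT+PBS. The study's methods state that the cell suspensions were pooled before capture, so the groups may share free RNA. The higher share in WT+ISO is thus not read as more free RNA there. Over both libraries, Plin2 stood in these clusters at 24.35% to 75.6% of its macrophage-like level, Pparg at 50.9% to 183.5%, Lipa at 44.5% to 62.1%, Fabp5 at 11.4% to 63.4% and Abcg1 at 4.59% to 43.0%. Lpl (1.90% to 2.70%), Cd36 (0% to 3.77%) and Abca1 (0% to 3.085%) stood far nearer the C1q shares. Lpl was still above the C1q share in each of these clusters, at 1.335 to 3.324 times it. The source of Lpl, Cd36 and Abca1 UMIs in neutrophil-like cells was not tested, and their levels there are not interpreted. Within WT+ISO, Fabp5 was at or below the C1q share too in the mature neutrophil-like cluster (16.3% against 18.8%), the Stfa3 cluster (7.11% against 19.2%) and the Ncam1 cluster (9.31% against 10.7%). Abcg1 stood just above that share in the Stfa3 cluster (21.4% against 19.2%), the Ncam1 cluster (13.9% against 10.7%) and the azurophil-granule progenitor-like cluster (3.92% against 3.76%). Within WT+PBS, where the C1q share was 0% to 0.488%, both genes stood well above it. Fabp5 was at 43.2%, 17.35% and 15.1% in the mature neutrophil-like, Stfa3 and Ncam1 clusters. Abcg1 was at 34.8%, 16.5% and 5.77% in the Stfa3, Ncam1 and azurophil-granule progenitor-like clusters.

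**Figure D3:**
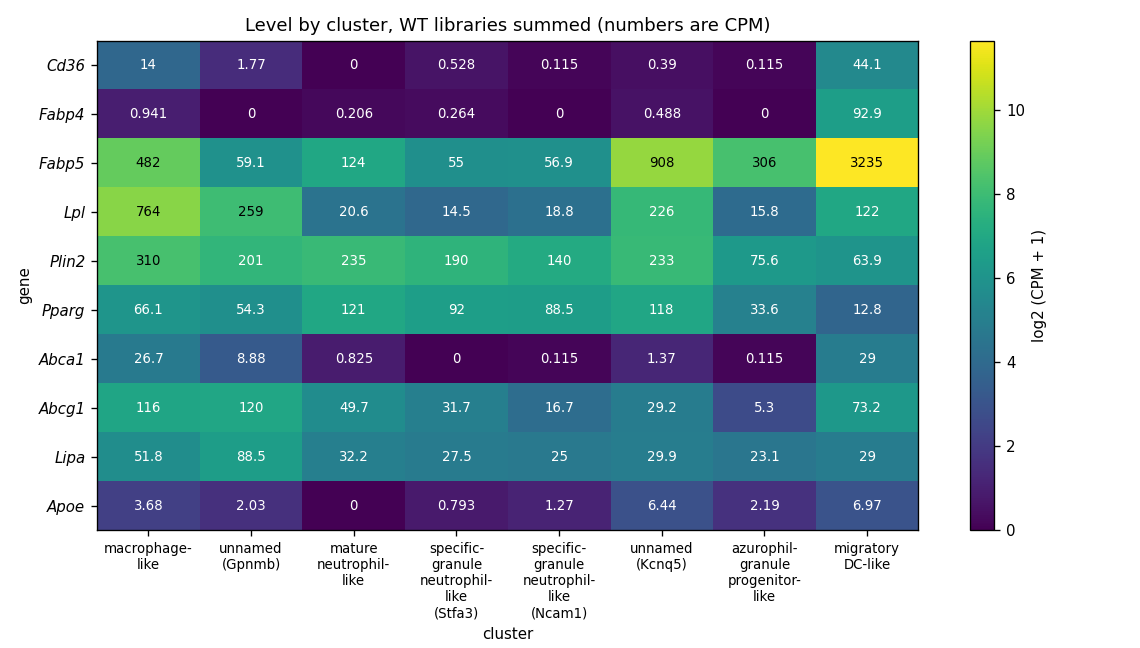
Rows are the 10 genes and columns the 8 clusters, with the WT libraries summed, colour for log2 (CPM + 1) and the CPM printed in each cell. Lpl is highest in the macrophage-like cluster (764 CPM), Fabp5 (3235) and Fabp4 (92.9) in the migratory dendritic-cell-like cluster, and Pparg in the mature neutrophil-like (121) and Kcnq5 (118) clusters.

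Within the macrophage-like cluster, which sets aside the change in its share, Cd36 and Lipa of WT were higher with ISO and Abca1 was lower. Plin2 was at 260 CPM in WT+PBS and 380 in WT+ISO (log2 ratio 0.55 [0.46 to 0.64]), Fabp5 at 413 and 578 (0.49 [0.41 to 0.56]) and Lpl at 703 and 848 (0.27 [0.21 to 0.33]). Lipa was at 42.0 and 65.4 CPM (0.64 [0.41 to 0.86]) and Cd36 at 10.7 and 18.7 (0.81 [0.37 to 1.25]), from 79 and 100 UMIs. The Cd36 UMIs lay in 28 of 445 cells with PBS and 40 of 293 with ISO. Its intervals are thus too narrow, here and in the finer clusters below. Abca1 was at 34.7 and 15.7 CPM, from 257 and 84 UMIs, with a log2 ratio of -1.15 [-1.52 to -0.78]. Abcg1 was at 122 and 107 CPM (-0.20 [-0.35 to -0.045]), and Pparg at 66.7 and 65.2, with an interval that held 0 (-0.24 to 0.17). Of the 8 members tested, 2 (Cd36 and Lipa) were thus 1.5-fold higher, against 2.2% of 8423 genes, and 1, Abca1, was lower, against 2.62%. The median of the 8 was 0.38, against 0.040 over all genes of the cluster. The log2 ratios of Lpl and Fabp5 were below 0 in the summed cells of WT and above 0 within this cluster, in neither case past 1.5-fold. The calls of Cd36 and Lipa depended on how finely the cells were clustered. With fewer clusters (resolution 0.3) Cd36 was at 0.58, just below 1.5-fold, and Lipa at 0.59. With more (resolution 1.0), where the macrophage-like cluster is smaller, Lipa was at 0.52 and Abca1 at -0.54, below 1.5-fold, while Cd36 (1.53) and Fabp5 (0.67) were past it.

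The macrophage-like cluster was itself not the same mixture in both libraries. C1qb, a complement gene of mature macrophages, had 290 UMIs with PBS and 24 with ISO within it (39.2 and 4.48 CPM). Its part in the ratios within the cluster was not tested. A finer clustering split it into monocyte-like cells (519, led by Csta3 and F13a1) and C1qb-led macrophage-like cells (203). The latter made up 6.65% of WT+PBS cells and 2.47% of WT+ISO cells, with 147 and 56 cells. Over both libraries, Abca1 was at 74.35 CPM in the C1qb-led macrophage-like cells and 12.8 in the monocyte-like cells, and Cd36 at 51.2 and 3.91. Plin2 had the opposite order, with 150.4 and 362 CPM, as did Pparg with 20.8 and 79.0. Lpl was at 856 and 753 CPM and Lipa at 61.6 and 48.9.

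In both finer clusters of WT, the ratios of Cd36, Fabp5, Lpl, Plin2 and Lipa with ISO were again above 0 and those of Abca1 and Abcg1 below it. The finer macrophage-like cluster was still not the same mixture in both libraries, with 66 C1qa UMIs in PBS cells and 1 in ISO cells, 280 and 38 of C1qb (log2 ratio -1.53), and 86 and 8 of C1qc. Its part in the ratios was not tested. In the C1qb-led macrophage-like cells Cd36 was at 31.7 CPM in WT+PBS and 101 in WT+ISO (1.68 [1.20 to 2.16], 68 and 85 UMIs), Fabp5 at 295 and 485 (0.72), Lpl at 763 and 1097 (0.52), Lipa at 52.6 and 84.6 (0.69) and Plin2 at 133 and 196 (0.56). Abca1 was at 81.1 and 57.2 CPM (-0.50 [-0.99 to -0.034]), a smaller difference than in the whole cluster, and Abcg1 at 146 and 120 (-0.28 [-0.61 to 0.052]). In the monocyte-like cells Plin2 had a log2 ratio of 0.38, Fabp5 of 0.44, Lpl of 0.23, Lipa of 0.67 and Abca1 of -0.91 [-1.51 to -0.34], and Cd36 went from 11 to 26 UMIs.

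**Figure D4:**
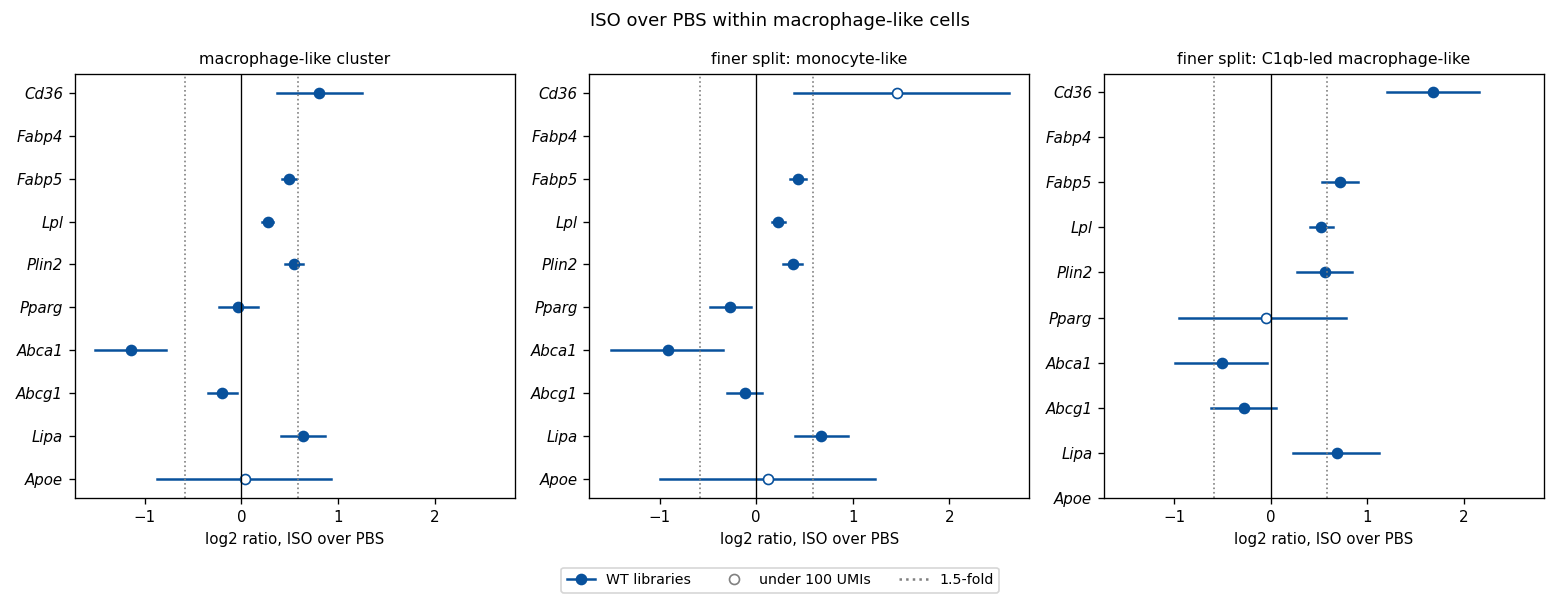
The 3 panels give the log2 ratio of ISO over PBS in WT (x axis) for each gene (rows) in the macrophage-like cluster and in the monocyte-like and C1qb-led macrophage-like cells of the finer split. Bars are 95% counting intervals, open symbols have fewer than 100 UMIs, and genes with fewer than 20 have no symbol. Cd36, Fabp5, Lpl, Plin2 and Lipa lie to the right of 0 and Abca1 to the left in all 3 panels.

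Over the 7 clusters with at least 20 cells in each library, 11 of 42 pairs of member and cluster with at least 100 UMIs were past 1.5-fold in either direction, which is 26.2%, against 4.13% of the 42828 such pairs over all genes. The members were chosen with earlier results of these data known, and the same genes recur over the clusters. The share is thus not read as a trait of the set. Of the 11 pairs, 4 were Lpl or Fabp5 in neutrophil-like clusters, at levels within the gauge of free RNA in WT+ISO or near it, a gauge of few UMIs. The largest ratio was that of Lpl in the mature neutrophil-like cluster (2.44 [1.45 to 3.61], 9 UMIs with PBS and 91 with ISO). The 91 UMIs lay in 16 of 521 cells, and at resolution 0.6 that cluster held 8 and 32 Lpl UMIs. Where these UMIs came from was not tested. Abcg1 was below its PBS level with ISO in 7 of 7 clusters with at least 20 cells and 20 UMIs in WT, with log2 ratios from -0.90 to -0.12 and 4 intervals below 0. In the Stfa3, Ncam1 and azurophil-granule progenitor-like clusters its WT+ISO level stood just above the gauge of free RNA, which rests on few UMIs there. In WT+PBS it stood at 34.8%, 16.5% and 5.77% of its macrophage-like level in these clusters, against 0% to 0.488% for the C1q genes. The part of free RNA in these Abcg1 ratios was not tested. How many of all genes lie on 1 side of 0 in as many clusters was not computed, for Abcg1 or for the genes below. In the Gpnmb cluster Abcg1 was at 142 CPM in WT+PBS and 88.7 in WT+ISO (-0.67 [-0.97 to -0.38]), and in the mature neutrophil-like cluster at 64.4 and 41.8. Lipa was above its PBS level in 6 of 7 clusters of WT, 4 with an interval above 0. Plin2 was above it in 5 of 7 clusters of WT, from -0.024 to 0.55, and 2 intervals lay above 0, those of the macrophage-like and the Kcnq5 cluster.

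Fabp5 and Lpl had ratios on both sides of 0. Fabp5 was at 863 CPM with PBS and 938 with ISO in the Kcnq5 cluster (0.12), and at 178 and 94.4 in the mature neutrophil-like (-0.92) and 71.6 and 41.1 in the Stfa3 cluster (-0.80). In the last 2 the WT+ISO level lay at or below the C1q gauge of free RNA. That gauge rests there on 3 and 2 UMIs, divided by 27 in the macrophage-like cluster. It is too small to show whether these Fabp5 levels are background, so no conclusion is drawn from it. Lpl stood at 3.40% and 1.20% of its macrophage-like level in WT+ISO in the same 2 clusters. The part of free RNA in these 2 Fabp5 ratios was not tested. Lpl in the Gpnmb cluster was at 288 and 216 CPM (-0.41). At resolution 1.0, where these cells were split, Lpl was at 162 and 280 CPM in the Gpnmb-led cluster (0.79) and at 328 and 189 in a cluster led by Acta2 (-0.79), so its direction in these cells depended on the clustering. Pparg was at 56.9 and 50.3 CPM in the Gpnmb cluster (-0.18 [-0.60 to 0.23]). Over the 7 clusters, 1 Pparg interval lay above 0 and 1 below. These were the Kcnq5 cluster (103.6 and 127.6 CPM, 0.30 [0.13 to 0.47]) and the mature neutrophil-like cluster (-0.31 [-0.55 to -0.068]). In the monocyte-like cells of the finer split Pparg was at -0.27 [-0.48 to -0.054].

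The migratory dendritic-cell-like cluster had 37 WT+PBS cells and 16 WT+ISO cells, too few with ISO for the minimum of 20. Its Fabp5 level was 3590 and 2476 CPM in that order. Fabp4 had 78 UMIs there with PBS and 2 with ISO. Most of the 89 Fabp4 UMIs of WT+PBS thus lay in this cluster. The minimum was lowered to 10 cells for this cluster after its size was seen.

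**Figure D5:**
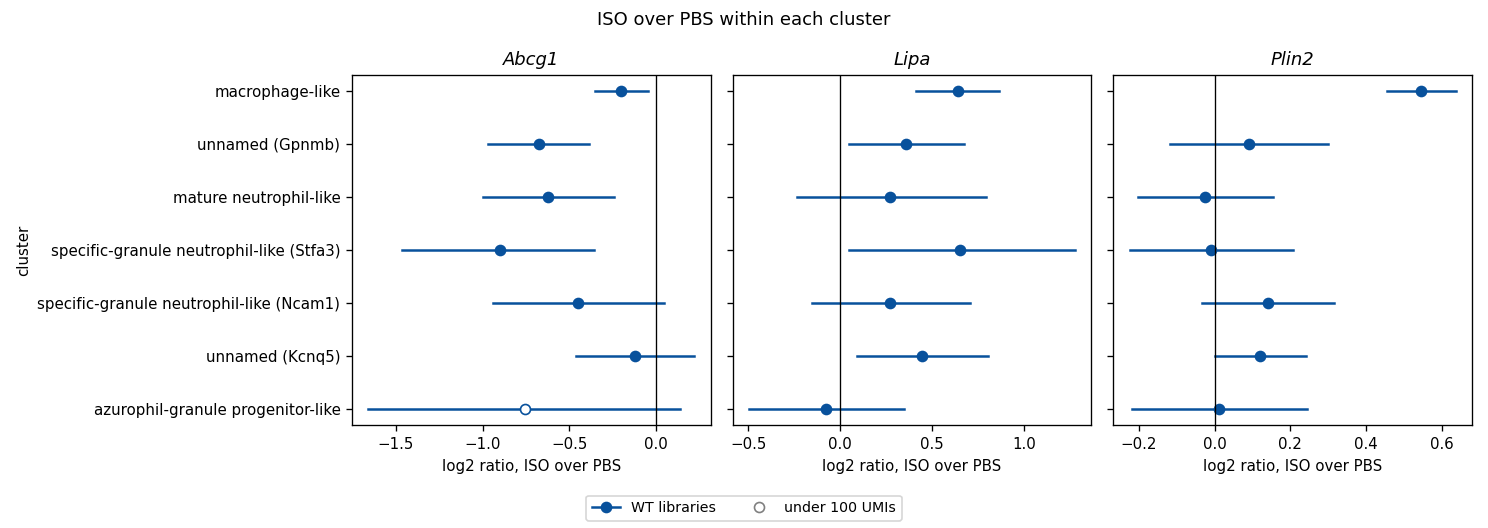
The panels show Abcg1, Lipa and Plin2, with the log2 ratio of ISO over PBS in WT on the x axis (each panel with its own scale) and the 7 clusters with enough cells as rows. Bars are 95% counting intervals and open symbols have fewer than 100 UMIs. All 7 symbols of Abcg1 lie below 0, from -0.90 to -0.12, and 6 of 7 symbols of Lipa above it.

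Other genes of the same pathways were counted in 5 lists, beside 1.0% of all genes tested that were higher and 5.5% that were lower. In lists this short, a count of 1 gene lower lies near the share of all genes. Of 13 tested genes of fatty acid and lipoprotein uptake, 0 were higher and 1 lower with ISO in WT, the scavenger receptor Msr1 (47.3 and 30.3 CPM, -0.64), with Lmf1 (-0.55), Slc27a1 (-0.44) and the lipoprotein receptor Lrp1 (-0.43) below 1.5-fold. Msr1 stood at 0.14 with clusters at fixed weights. Of 16 genes of droplet synthesis and lipolysis, 1 was higher, the acyltransferase Agpat2 (93.7 and 141 CPM, 0.59), and 1 lower, the phosphatidate phosphatase Lpin1 (13.7 and 8.06, -0.76), with Plin5 at 0.50 and Hilpda at -0.44. Of 14 LXR targets and efflux genes, Arl4c (-0.70) and Apoc2 (-0.59) were lower and none was higher, with Smpdl3a (0.26) and Abca2 (0.25) below 1.5-fold. In this list 7 ratios lay above 0 and 7 below. Of 11 partners and targets of PPARγ, 1 was lower, the transglutaminase Tgm2 (88.7 and 50.3 CPM, -0.82), and none was higher. Of 10 lysosomal lipid hydrolases and their activators, Gm2a (108 and 59.7 CPM, -0.86) and Psap (1141 and 745, -0.61), which encode sphingolipid activators, were lower and none was higher. The medians of the 5 lists lay between -0.077 and 0.065.

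Over the 14 combinations of cluster and library with at least 50 cells, the genes whose log2 (CPM + 10) followed the members most closely were found among genes with at least 500 UMIs. The migratory dendritic-cell-like cluster, with 37 and 16 cells, was not among them, though several members had their highest level there. These combinations share libraries and cell types, so the correlations describe the pattern over the cell types used. The highest Pearson r was 0.98 for Abcg1 (Mtss1 and Wdfy2), 0.98 and 0.97 for Lpl (S100a10 and Tnfaip1), 0.98 and 0.95 for Cd36 (Pf4 and Il7r) and 0.96 for Abca1 (Dst and H2-Ab1). For Plin2 it was 0.97 and 0.96 (Cd164 and Tpm4), for Lipa 0.96 (Ccl2 and Tbk1), for Fabp5 0.94 and 0.93 (Nt5c3b and Slc7a5) and for Apoe 0.93 and 0.92 (Pim3 and Cul4b). The values were lower for Pparg (Atp11a, 0.86, and Zfp217, 0.83) and Fabp4 (Mak, 0.81, and F11r, 0.78). Over both libraries Fabp4 was at most at 0.94 CPM in the clusters used, far below the 10 added, so no pattern is read from its values. Apoe was at most at 6.44 CPM in them over both libraries, and at 8.27 in the Kcnq5 cluster of WT+PBS. Both values lie below the 10 added, and no pattern is read from Apoe either. Cd36 was at 14.0 CPM in the macrophage-like cluster and at 1.775 or less in the others used, so its values rest on that cluster. Among the members themselves, Cd36 and Abca1 were the most alike (0.84), and Pparg had values below 0 with Abca1 (-0.24), Lipa (-0.23), Cd36 (-0.185) and Lpl (-0.11). Abca1 was at 26.7 CPM in the macrophage-like cluster, 8.88 in the Gpnmb cluster and 1.37 or less in the others used. The value for Cd36 and Abca1 thus rests mostly on the macrophage-like cluster, where their log2 ratios with ISO were 0.81 and -1.15.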

How the data were processed

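The authors deposited filtered UMI counts per gene and cell, without normalization, for live CD11b+ cells. Values are given here for the 2 WT libraries, and the other 2 libraries of the series, with which they were filtered and clustered, are not reported here. The file header names Cell Ranger 7.0.0, and the submitters' processing notes name Cell Ranger 6.0.0, mm10 and Seurat. The files also count 12 multiplexing tags, of which 1 dominated each library (95.4% and 97.1% of tag UMIs). These were not analysed further. The cell suspensions had been pooled before capture, as the study's methods state.

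Of 4532 barcodes, 4474 passed a minimum of 200 genes and a maximum of 10% mitochondrial UMIs. Doublets were not removed. Counts were scaled to 10000 per cell, log-transformed and clustered with scanpy 1.11.5 and the Leiden method of leidenalg 0.10.2 (2000 variable genes without the members and pathway lists, 30 principal components, 15 neighbours, resolution 0.4, seed 0; the finer split at 0.6; 9303 cells in all). A cluster was named where at least 3 markers of a list were found in at least 10% of its cells and averaged a log2 ratio of 1 or more against the other cells, and 1 of them stood among its 10 leading genes. Summed counts per library, or per cluster with at least 20 cells, were given as CPM with exact Poisson intervals, ratios with exact conditional binomial intervals and shares of cells with Clopper-Pearson intervals (scipy 1.17.1), all at 95%. Of these methods only the ratios and their intervals were tested on simulated counts. Those counts were drawn from Poisson distributions, as the interval assumes, so UMIs bunched in few cells were not covered.

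Groups came from the sample titles. Each group is 1 library, and no p-value was computed. The genes named are the 10 members, up to 4 genes of each pathway list with the largest ratios for ISO in WT, the 2 genes most correlated with each member, and Nnt, Xist and Ddx3y as checks, whose levels differed by less than 1.5-fold. C1qa, C1qb and C1qc served as the gauge of free RNA. The members and lists were chosen with earlier results of these data known. Reads of Fabp5 may be shared with near-identical processed copies of the gene, and how such reads were counted is not given in the sources used here. Alternatives were other filters on cells, other scalings, equal weight per cell, fixed cluster weights (mean shares over the libraries clustered together), removal of the deepest 5% of cells of each cluster, other resolutions, thinning to 2000 or 1000 UMIs and, chosen after seeing the data, removal of the 5 cells with the most UMIs of a gene and a minimum of 10 cells per cluster.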

Additional observations from a re-analysis of the deposited data

How the results depend on the processing

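No paired analysis was possible because the 2 groups are single libraries, and no replicate could be left out. The number of members past 1.5-fold with ISO was 2 under other filters on cells, size factors, totals without the 20 most abundant genes, equal weight per cell, fixed cluster weights and removal of the deepest 5% of cells, and the median of the members ranged from -0.18 to -0.011. At fixed weights the 2 were Abca1 and Cd36 in place of Abca1 and Abcg1, and the signs of Fabp5 (0.049), Lpl (0.12) and Pparg (-0.071) changed. Fixed weights also reversed the ratio of Msr1 (0.14). At resolutions 0.3, 0.6 and 1.0, 6 to 8 members peaked in macrophage-like, monocyte-like or dendritic-cell-like clusters, a count with no share over all genes beside it. At these resolutions 24.6% to 26.9% of member and cluster pairs were past 1.5-fold with ISO, against 4.06% to 4.89% of the pairs over all genes. These shares are not read as a trait of the set either, for the reasons given with the main share. Thinning to 1000 UMIs in place of 2000 left 6 of 10 members with the same top cluster by share of cells. The causes were not tested. Cd36, Fabp4 and Apoe, at 10 to 127 UMIs a library, are limited by depth, and without the 5 cells with the most Apoe UMIs its ratio was 0.55.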
